A study of Mus musculus with 20 samples.

Results

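Interferon response genes were followed in the brains of mice that carried an inducible transgene for Tat, the HIV-1 trans-activator of transcription, and that had received methamphetamine (Meth) or saline (Sal). The set held 39 genes, chosen by symbol as well known products or transcription factors of the interferon response. By role they were 24 stimulated effectors, 2 RNA sensors, 8 transcription factors, 2 guanylate-binding proteins and 3 genes of class I antigen presentation. Of these, 37 were matched to an array probe and 34 had enough signal to be tested, among 20970 genes with a probe and 15102 tested. Mx1 and Mx2 were not matched to a probe.

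There were 4 groups of 5 male mice on a C57BL/6J background, each mouse on 1 array. The controls were Tat−/Sal, Meth alone was Tat−/Meth, Tat alone was Tat+/Sal, and both together Tat+/Meth. Tat+ mice carried both parts of the inducible system, a doxycycline-responsive regulator driven by the GFAP promoter of astrocytes and a Tat transgene under its target promoter, whereas Tat− mice carried the regulator alone. All 20 mice, the Tat− and saline mice included, received 100 mg/kg doxycycline daily for 7 days, so the groups differ by Tat on a shared doxycycline background, and Tat comes from astrocytes rather than from infected cells. Meth was given at 2 mg/kg on 7 consecutive days. The labels give the left hemisphere, an age of 6 to 7 weeks and collection 24 h after the last injection. The methods of the study differ from the labels: they name the caudate putamen of older mice, with every animal, saline mice included, challenged with Meth shortly before collection. The 9 striatal neuron markers examined were all well above background on all arrays of each group, and of 6 cortical neuron markers 3 or 4 were.

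Interferons are cytokines made on recognition of viral nucleic acid or other danger signals. Type I interferons bind the receptor Ifnar1 and Ifnar2, whose kinases activate transcription factors of the Stat family. Among them Stat2 acts with Irf9 in a complex that binds interferon-stimulated response elements and switches on effectors such as Isg15, the Ifit genes and the oligoadenylate synthetases. In the brain the response can run in microglia, astrocytes, endothelium and neurons, and it is known for its low resting level and steep induction.

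Signals were background-subtracted intensities on a log2 scale, with each array brought to a common 75th percentile. Differences in these values are log2 fold changes, and levels are not comparable between genes because each has its own probe. A gene passed the test at a Benjamini–Hochberg adjusted p under 0.05 over the 15102 genes in limma, and was called changed when it also moved more than 2-fold. All 5 Tat−/Meth arrays lay on slide 1 with no other group, slide 2 carried Tat−/Sal together with replicates 1 to 3 of Tat+/Meth, and slide 3 carried Tat+/Sal together with the remaining Tat+/Meth mice. Bright corner control spots, which do not depend on mouse RNA, read 14.7 to 15.1 on slide 1 and 16.8 to 17.4 elsewhere. Slide 1 and Tat−/Meth cannot be told apart in any comparison that uses this group. Tat−/Sal and Tat+/Sal shared no slide, so their comparison also sets slide 3 against slide 2.

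The interferon response genes varied widely between mice of the same group, and 1 saline mouse stood far above the others. The median within-group SD of the 34 tested genes was 0.339 log2 units, against 0.147 for all genes tested. Without Tat−/Sal replicate 1 it was 0.248, against 0.146. That array was the highest of all 20 for 23 of the 34 genes, while over all genes tested it was highest for 3.15%. It lay more than 1 log2 unit above the median of the other 19 arrays for 18 of the 34, beside 0.735% of all genes. This mouse is labelled as a saline control without Tat. The array was singled out after its values were seen, so these counts are a description.

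**Figure D1:**
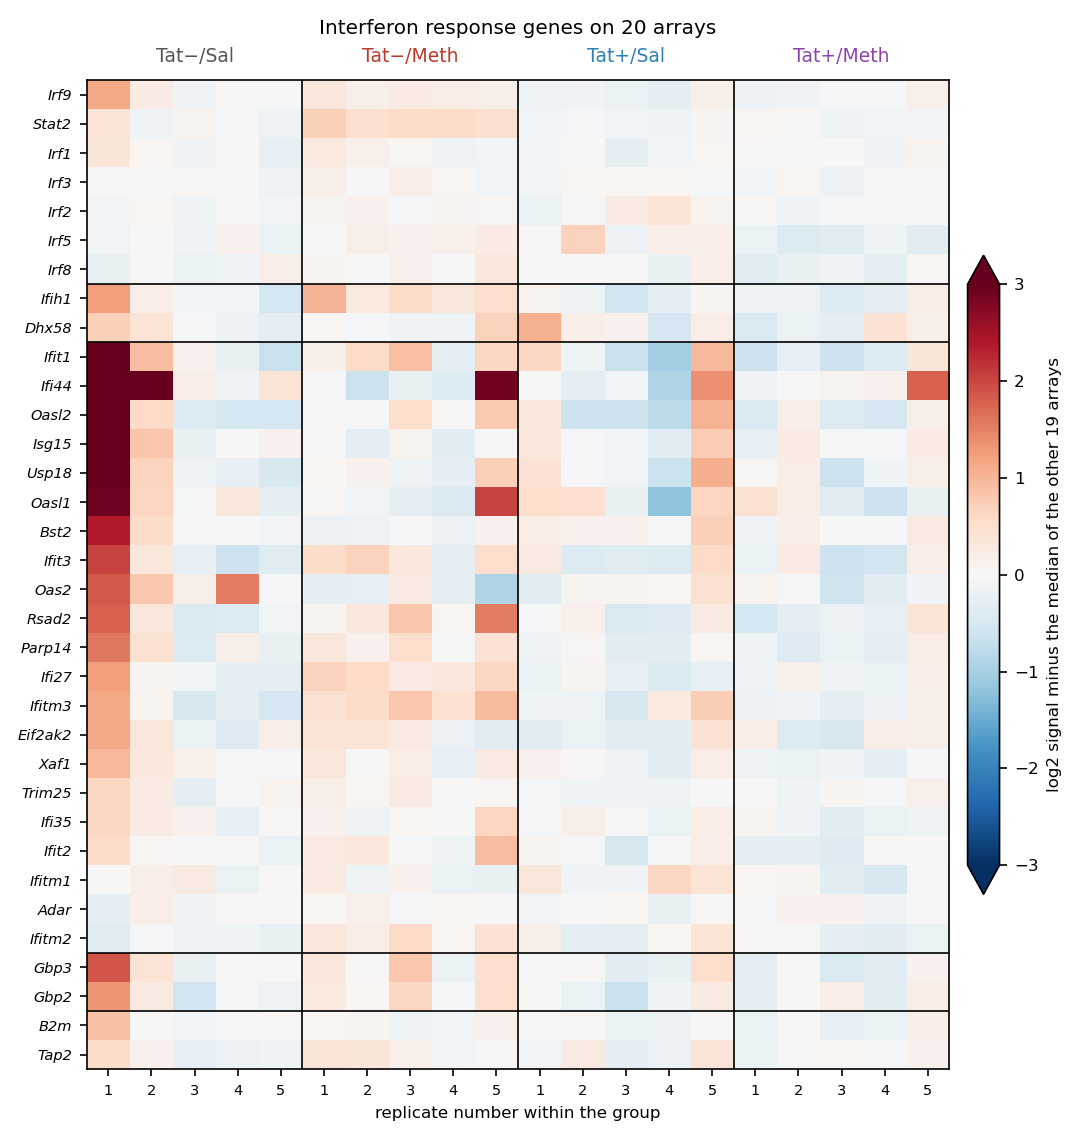
Heat map of the 34 tested interferon response genes (rows, grouped by role: transcription factors, RNA sensors, stimulated effectors, guanylate-binding proteins, class I antigen presentation) on 20 arrays (columns, by group and replicate number). Colour gives the log2 signal minus the median of the other 19 arrays, with values beyond 3 drawn at the end of the scale. Tat−/Sal replicate 1 is the highest array for 23 genes, and the transcription factors vary less than the stimulated effectors.

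The stimulated effectors carried the rise, with 16 of 21 tested at their highest in Tat−/Sal replicate 1. Isg15, a ubiquitin-like protein that is joined to other proteins, measured 12.82, 10.37, 9.32, 9.53 and 9.65 in Tat−/Sal replicates 1 to 5. In Tat−/Meth it measured 9.55, 9.29, 9.63, 9.21 and 9.56, in Tat+/Sal 9.88, 9.52, 9.47, 9.21 and 10.28, and in Tat+/Meth 9.31, 9.77, 9.53, 9.5 and 9.78. The first saline mouse was thus 9.75-fold above the median of the other 19, all of which lay between 9.21 and 10.37. A dimmer probe of Isg15 read 8.86 in that mouse and had a median of 5.22 in the others.

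Ifit1, which binds viral RNA lacking the host cap modification, measured 10.33, 7.46, 6.67, 6.46 and 6.00 in Tat−/Sal and 5.63 to 7.52 on the other groups' arrays, 13.8-fold above the median of the other 19 arrays. Oasl2, a member of the oligoadenylate synthetase family, measured 11.93, 8.88, 7.90, 7.80 and 7.78 in Tat−/Sal, 12.6-fold above that median. Usp18, the protease that removes Isg15 and restrains the receptor, measured 10.01, 7.41, 6.64, 6.55 and 6.31 and was 9.59-fold above it. In each of these genes the first saline mouse was alone at the top, and Tat−/Sal replicate 2 was the next within its group. Bst2, or tetherin, which holds budding virus at the cell surface, was 5.19-fold above the median, Ifit3 4.07-fold and Oasl1 7.53-fold. The rise was smaller for Rsad2, or viperin, at 3.45-fold and for Parp14, an ADP-ribosyltransferase, at 3.02-fold.

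Ifi44, an interferon-induced gene, was high in more than 1 mouse. It measured 8.77 and 8.08 in Tat−/Sal replicates 1 and 2, 7.99 in Tat−/Meth replicate 5, 6.88 in Tat+/Meth replicate 5 and 6.46 in Tat+/Sal replicate 5. The other 15 arrays lay between 4.22 and 5.52. High values thus occurred in all 4 groups, and the within-group SD of 1.27 was above that of 99.9% of all genes tested. Ifi44 was well above background on 2, 3, 2 and 2 arrays of Tat−/Meth, Tat−/Sal, Tat+/Meth and Tat+/Sal.

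**Figure D2:**
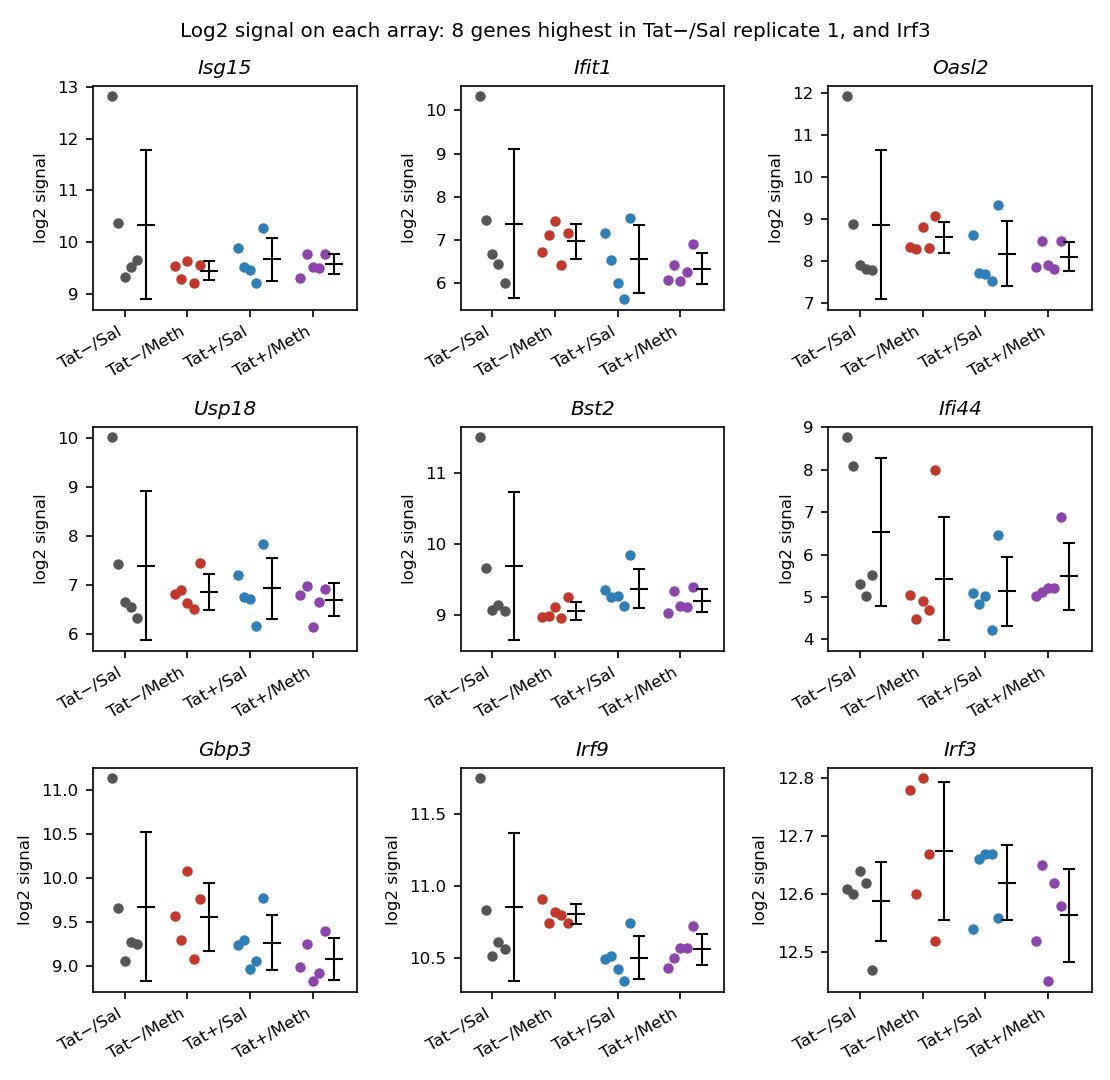
Log2 signal (vertical axes) on every array in the 4 groups (horizontal axes) for 8 genes highest in Tat−/Sal replicate 1 and for Irf3. Points are arrays, drawn from left to right by replicate number, and black bars give the group mean ± SD (n = 5). The first saline mouse stands above the rest of its group for the 8 genes, and lies inside the range of the other arrays for Irf3.

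The antigen presentation genes and the guanylate-binding proteins moved with the effectors. B2m, the light chain of class I molecules, measured 14.26 in Tat−/Sal replicate 1 and 13.14 to 13.57 on the other 19 arrays. Tap2, a subunit of the peptide transporter, measured 10.70 against at most 10.53. Gbp3 measured 11.13 against at most 10.07, and Gbp2 10.33 against at most 9.62. Both guanylate-binding proteins are GTPases induced by interferon, and both were highest in this mouse.

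The transcription factors divided. Irf9, the DNA-binding part of the type I complex, measured 11.75 in Tat−/Sal replicate 1 and 10.34 to 10.91 on the other arrays, and Irf1 measured 10.03 against at most 9.96. Irf2, Irf3, Irf5, Irf8 and Stat2 were not at their highest there, although for Stat2 this mouse (11) lay above every array outside Tat−/Meth (at most 10.70). Irf3, which is activated by phosphorylation rather than by more transcript, measured 12.61 in this mouse, with a median of 12.62 in the others. Among the effectors Adar, the RNA editing enzyme, was lower in this mouse (13.09) than on any other array (at least 13.13) by its brighter probe, whereas its dimmer probe read 11.05 against a median of 10.88 in the others. Ifitm2 was also at its lowest in this mouse (8.51, against at least 8.52). The sensor Ifih1, which detects long double-stranded RNA, was highest in it (8.97, against at most 8.72), whereas Dhx58, a related helicase without signalling domains, was not.

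Genes of the pathway outside the set were high in the same mouse. Of 83 further interferon pathway genes tested, 32 were at their highest there. Ranked by the gap to the next array, the first 20 genes of this mouse included 6 of the set (Ifit1, Oasl2, Isg15, Usp18, Bst2 and Ifit3) and 5 of the pathway list (Ccl5, Cxcl10, Oas1a, Rtp4 and Trim30a), whereas the first 20 of every other array held at most 1 gene of the set. Cxcl10, a chemokine that attracts T cells, measured 10.02 against at most 6.72 elsewhere. Ccl5, another such chemokine, measured 11.04 against at most 7.51. These genes were named because of their rank in this mouse.

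Cell type markers in Tat−/Sal replicate 1 are given as the median, over a list, of each marker's deviation from its own median across the 20 arrays. It was 0.09 for 10 microglial markers (−0.13 to 0.13 over all arrays), −0.19 for the blood leukocyte list (−1.26 to 0.56) and −0.25 for the endothelial list (−0.25 to 0.45). For 8 astrocyte markers it was −0.01 (−0.09 to 0.36), and for the red blood cell list −0.62 (−0.85 to 1.37). The striatal neuron list was at −0.19, the lowest of all arrays (at most 0.14). The choroid plexus list was at 0.29 (−0.72 to 1.06) and the cortical neuron list at 0.17 (−0.78 to 2.13). Single markers could depart from these medians, as with Ttr of the choroid plexus list at 10.62 (median of the others 8). Aif1 of the microglial list read 12.43 (median of the others 12.03). Cd8a and Ccr2 of the leukocyte list were not well above background on any array. Their part in the rise was not tested. In bulk tissue, more cells of a type and more RNA per cell cannot be told apart. The share of probes well above background on this array was 67.8%, and on the other arrays 55.4 to 70.9%.

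Smaller rises were seen elsewhere. Tat−/Meth replicate 5 was among the 3 highest arrays for 15 of the 34 genes, Tat+/Sal replicate 5 for 13 and Tat−/Sal replicate 2 for 12, beside 26 for Tat−/Sal replicate 1. The median deviation of the 34 genes from their own median over all arrays was 1.08 in Tat−/Sal replicate 1, 0.43 in Tat−/Meth replicate 5, 0.24 in Tat−/Sal replicate 2 and 0.22 in Tat+/Sal replicate 5. No Tat+/Meth array exceeded 0.12. Over all genes tested the median deviation was 0.1 in Tat−/Meth replicate 5, 0 in Tat−/Sal replicates 1 and 2, and −0.03 in Tat+/Sal replicate 5. Tat−/Meth replicate 5 was the highest array for 3 of the 34 genes, beside 13.5% of all genes. The share of all genes for which an array was among the 3 highest was not counted. In Tat−/Meth replicate 5 the genes were Oasl1, at 7.62 with 5.22 to 5.64 in the rest of its group, and Ifi44, with Rsad2 at 7.96 against 6.47 to 7.26, while Isg15 at 9.56 was inside its group's range.

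Promoter sequence is shown for genes that rose together in the first saline mouse, and for Stat2 and Ifitm2, which were not at their highest in it and which differed between groups. RefSeq windows of 300 bases, from 250 before to 50 after the start, were available for 31 of the 39 genes (build GRCm38.p6). The core of the interferon-stimulated response element was searched on both strands as GAAA, any 2 bases, then GAAA. It was held by the windows of 15 of 31 genes (48.4%), against 3.99% of all genes with a window. Among genes highest in Tat−/Sal replicate 1 it was held by 11 of 18, and among the other tested genes by 3 of 10. The gamma-activated site core TTCNNNGAA, which reads the same on both strands, was held by 9 of 31 (29%), against 9.55% of all genes. Matches are shared letters only. The genes were divided by these same arrays. Matches overlap one another in Isg15, Gbp3 and Bst2, and in Bst2 both motifs overlap. Stretches of 40 bases before the start are given 5′ to 3′ on the strand of the gene, with the match to this response element core, or to its reverse complement, in capitals.
Isg15, minus strand, chr4:156200866-156200905: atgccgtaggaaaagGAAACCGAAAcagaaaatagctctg
Ifit1, plus strand, chr19:34640789-34640828: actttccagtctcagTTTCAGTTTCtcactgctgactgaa
Ifit3, plus strand, chr19:34583392-34583431: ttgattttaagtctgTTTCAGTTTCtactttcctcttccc
Bst2, minus strand, chr8:71537572-71537611: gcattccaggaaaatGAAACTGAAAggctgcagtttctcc
Gbp3, plus strand, chr3:142559984-142560023: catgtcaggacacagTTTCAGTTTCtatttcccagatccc
B2m, plus strand, chr2:122147533-122147572: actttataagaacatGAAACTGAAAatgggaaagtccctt
Stat2, plus strand, chr10:128270261-128270300: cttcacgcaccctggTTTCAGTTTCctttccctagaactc
Ifitm2, minus strand, chr7:140955983-140956022: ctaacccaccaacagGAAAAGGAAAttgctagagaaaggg
The capitals of Ifit1, Ifit3, Gbp3 and Stat2 are the same letters, and those of Bst2 and B2m are their reverse complement. Stat2 was 1.33-fold above the median of the other arrays in this mouse, and Ifit1 13.8-fold. Ifit1 and Ifit3 each hold a second match farther from the start.

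The effect of Meth without Tat was examined in Tat−/Meth against Tat−/Sal mice. Stat2 and Ifitm2 were higher and Oas2 was lower, so 3 of 34 genes (8.82%) passed, whereas 50.2% of all genes tested passed in this comparison (35% higher and 15.3% lower). The median log2 fold change was −0.03 over the 34 genes and 0.14 over all genes. Oas2 was the only gene of the set called above 2-fold, beside 6.85% of all genes.

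Stat2, the signal transducer particular to type I and III interferons, measured 11.30, 11.07, 11.15, 11.13 and 11.08 in Tat−/Meth and 11, 10.45, 10.70, 10.56 and 10.47 in Tat−/Sal. It measured 10.53, 10.59, 10.54, 10.49 and 10.67 in Tat+/Sal and 10.66, 10.62, 10.46, 10.54 and 10.53 in Tat+/Meth. Every Tat−/Meth array lay above all 15 others. The log2 fold change against Tat−/Sal was 0.50 ± 0.08 (SE; limma adjusted p = 8e-05), and 0.60 without Tat−/Sal replicate 1.

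Ifitm2, a membrane protein that hinders virus entry, measured 9.17, 9.08, 9.44, 8.91 and 9.29 in Tat−/Meth and 8.51, 8.85, 8.72, 8.73 and 8.65 in Tat−/Sal, without overlap. The log2 fold change was 0.49 ± 0.12 (SE; limma adjusted p = 0.00343). Oas2, an oligoadenylate synthetase that activates RNA decay, measured 6.54, 6.59, 7.00, 6.54 and 5.92 in Tat−/Meth and 8.61, 7.55, 6.93, 8.29 and 6.75 in Tat−/Sal. Of the Tat−/Meth arrays 4 lay below all of Tat−/Sal, and the saline arrays were widely spread. The log2 fold change of Oas2 was −1.11 ± 0.29 (SE; limma adjusted p = 0.00397), and −0.86, short of 2-fold, without Tat−/Sal replicate 1. By the methods' t-test on the same values Oas2 did not pass (Benjamini–Hochberg adjusted value 0.052).

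**Figure D3:**
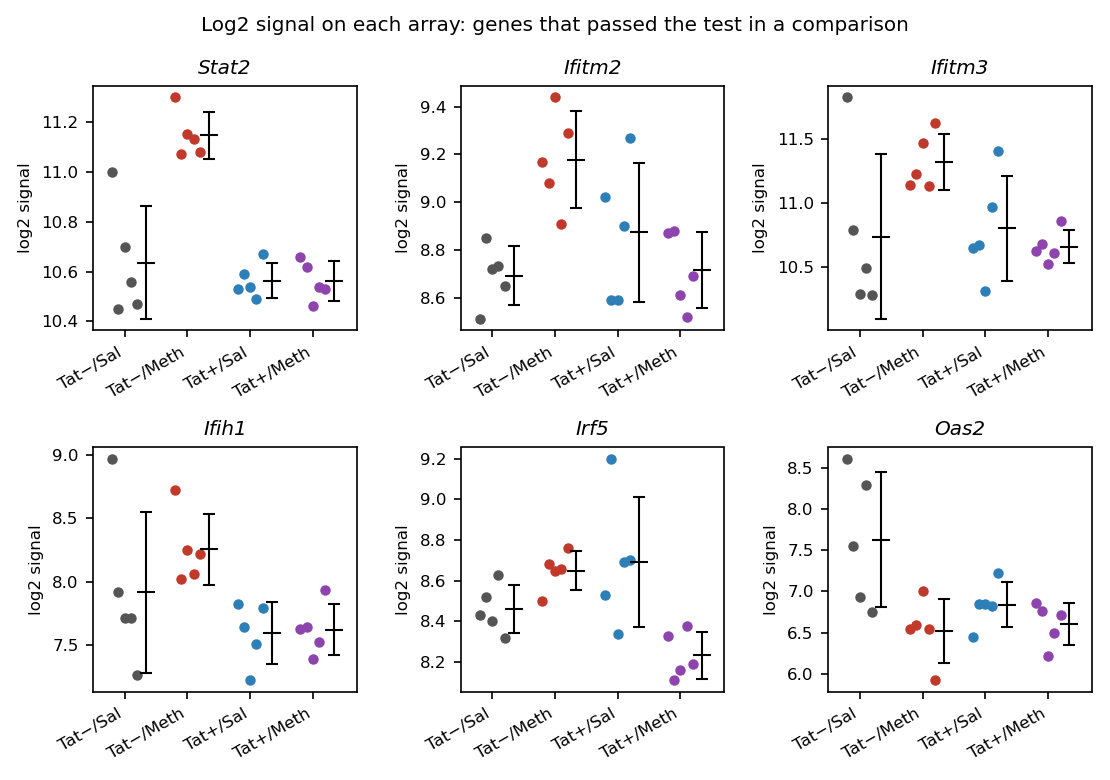
Log2 signal (vertical axes) on every array in the 4 groups (horizontal axes) for 6 genes that passed the test in at least 1 comparison. Points are arrays, drawn from left to right by replicate number, and black bars give the group mean ± SD (n = 5). For Stat2 all 5 Tat−/Meth arrays lie above the other 15, and for Oas2 the Tat−/Sal arrays are the most spread. Tat−/Meth shares slide 1 with no other group, and without scaling the differences of Stat2 and Ifitm2 from Tat−/Sal were 0.08 and 0.06.

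More genes passed without the first saline mouse. It was singled out because these genes were high in it, so the adjusted p-values without it are a description and no test of Meth. Without it 7 of 32 genes passed (Ifi44 and Dhx58 were then under the signal limit), beside 48.1% of all genes, with Ifi27, Ifih1, Rsad2 and Ifitm3 added on the higher side. Ifitm3, which acts at the endosome, moved from 0.58 (limma adjusted p = 0.0514) to 0.86 (adjusted p = 0.000629). Ifi27, a mitochondrial protein of the response, moved from 0.31 to 0.58 (adjusted p = 0.000261). The log2 fold changes of Ifit1, Oasl2 and Usp18 turned from −0.41, −0.30 and −0.53 to 0.33, 0.47 and 0.13, with none of them past the test in either fit. Isg15 moved from −0.89 to −0.27, also short of the test in both. The median of the set was then 0.15, beside 0.14 for all genes.

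Scaling sets the direction here, since without scaling the median of all genes moved to −0.29 and that of the set to −0.45. Without scaling 12 genes passed, all lower, against 2 higher and 1 lower with it, and 48% of all genes passed, of which 98.3% were lower. Stat2 then differed by 0.08 (limma adjusted p = 0.624), so its rise was a rise relative to the array as a whole. With scaling some cell markers passed too, where 35% of all genes passed as higher and 15.3% as lower. Of astrocyte markers 4 of 8 were higher and 1 lower (median log2 fold change 0.22), of endothelial markers 2 of 7 were higher (0.10), and of microglial markers 3 of 10 were higher and 2 lower (−0.03). Of blood leukocyte markers 2 of 6 tested, Cd3e and Cd4, were lower, with a median of 0.08 over the list. Of striatal neuron markers 2 of 9 were lower (0.07), and of cortical neuron markers 1 of 5 tested was lower (−0.79). Of red blood cell markers 1 of 4 tested was higher (0.42), and of choroid plexus markers 0 of 6 tested passed (0.33). The summed level of the leukocyte list was 13.6 to 14 in Tat−/Meth and 15.5 to 15.9 in Tat−/Sal, and that of the microglial list 17.1 to 17.3 and 17.6 to 18, but these sums are set mainly by the brightest probe, Cd4 and Itgam respectively. Their part in the result was not tested.

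**Figure D4:**
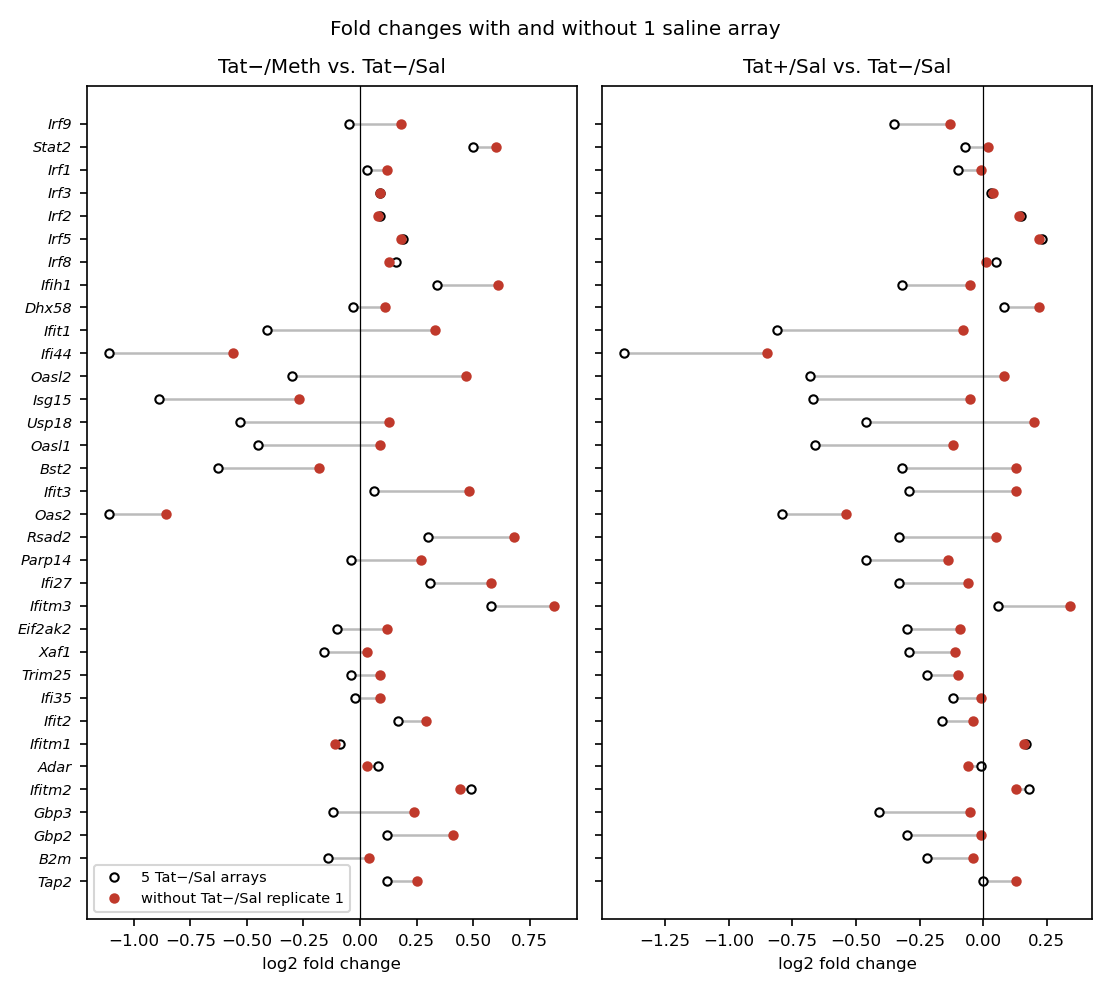
Log2 fold changes (horizontal axes) of the 34 tested genes (rows) with all 5 Tat−/Sal arrays (open circles) and without Tat−/Sal replicate 1 (red), for Tat−/Meth vs. Tat−/Sal and Tat+/Sal vs. Tat−/Sal. Leaving out this array moved the median of the set from −0.03 to 0.15 and from −0.29 to −0.01. The medians without it exclude Ifi44 and Dhx58, which are drawn but were then under the signal limit. Without scaling the median for Tat−/Meth vs. Tat−/Sal with all arrays was −0.45.

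The effect of Tat in Meth-treated mice was examined by the comparison of Tat+/Meth with Tat−/Meth, where 7 of 34 genes (20.6%) passed and all 7 were lower in Tat+/Meth. Of all genes tested 54.4% passed, 38.5% on the lower side and 16% on the higher side. The median log2 fold change was −0.27 over the set and −0.15 over all genes. No gene of the set was called above 2-fold, beside 7.22% of all genes. This comparison shares the Tat−/Meth arrays with the preceding one, so both carry the same slide and the same mice.

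By role the 7 genes were 3 transcription factors, 1 sensor and 3 effectors. Stat2 fell by 0.58 on the log2 scale (SE 0.08; limma adjusted p = 1.43e-05), and all 5 Tat+/Meth arrays lay below all Tat−/Meth arrays. Ifitm3 measured 11.14, 11.23, 11.47, 11.13 and 11.63 in Tat−/Meth and 10.62, 10.68, 10.52, 10.61 and 10.86 in Tat+/Meth, a difference of −0.66 ± 0.24 (SE; limma adjusted p = 0.026). It measured 11.83, 10.79, 10.29, 10.49 and 10.28 in Tat−/Sal and 10.65, 10.67, 10.31, 10.97 and 11.41 in Tat+/Sal. The groups of the comparison did not overlap, while Tat−/Sal spanned both.

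Ifih1 measured 8.72, 8.02, 8.25, 8.06 and 8.22 in Tat−/Meth and 7.63, 7.64, 7.39, 7.52 and 7.93 in Tat+/Meth, also without overlap. The difference was −0.63 ± 0.23 (SE; limma adjusted p = 0.0257). In Tat−/Sal it measured 8.97, 7.92, 7.71, 7.71 and 7.26, and in Tat+/Sal 7.82, 7.64, 7.22, 7.51 and 7.79. Only the first saline mouse lay above the Tat−/Meth range.

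Irf5, a transcription factor downstream of Toll-like receptors, measured 8.50, 8.68, 8.65, 8.66 and 8.76 in Tat−/Meth and 8.33, 8.11, 8.16, 8.38 and 8.19 in Tat+/Meth, a difference of −0.41 ± 0.11 (SE; limma adjusted p = 0.00486). It measured 8.43, 8.52, 8.40, 8.63 and 8.32 in Tat−/Sal and 8.53, 9.20, 8.34, 8.69 and 8.70 in Tat+/Sal. The 3 lowest of the 20 arrays for Irf5 were Tat+/Meth, and the highest was Tat+/Sal replicate 2. Ifitm2 measured 8.87, 8.88, 8.61, 8.52 and 8.69 in Tat+/Meth, all below Tat−/Meth, with a difference of −0.46. Irf8, a factor of the myeloid lineage, differed by −0.28 (limma adjusted p = 0.0178), and Ifit2, of the same family as Ifit1, by −0.44 (adjusted p = 0.0442). The groups overlapped for Irf8 and Ifit2. The call of Ifit2 was lost without any of 11 arrays (adjusted p up to 0.138 without Tat−/Meth replicate 5), that of Ifih1 without Tat−/Meth replicate 1 (0.0775) or Tat+/Meth replicate 3 or 4, that of Irf8 without Tat−/Meth replicate 5 or Tat+/Meth replicate 1 (0.0533), and that of Ifitm3 without Tat−/Meth replicate 3 or 5 (0.0595) or Tat+/Meth replicate 3. The Ifitm genes are close copies of one another, and whether their probes separate them was not tested.

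Without Tat−/Sal replicate 1, which is in neither group but enters the shared estimate of the spread, 13 of 32 genes passed and all were lower, beside 54.2% of all genes. Added were Ifit3, Ifi27, Irf9, Rsad2, Gbp3 and Parp14, with log2 fold changes of −0.24 to −0.69. That array was singled out after its values were seen, so the larger count is a description. With only the groups compared in the fit 12 passed, beside 52.1% of all genes. Without scaling 1 gene passed, Adar, and it was higher, beside 37.1% of all genes, of which 5.77% were lower. With scaling, 38.5% of all genes passed as lower in this comparison and 16% as higher. Of astrocyte markers 5 of 8 were lower and 1 higher (median −0.28), and of microglial markers 4 of 10 lower and 2 higher (0.05). Of endothelial markers 2 of 7 were lower (−0.09), and of blood leukocyte markers 3 of 6 tested higher (0.01). Of striatal neuron markers 2 of 9 were lower and 2 higher (−0.06). Of choroid plexus markers 1 of 6 tested was lower (−0.41), of red blood cell markers 1 of 4 (−0.48) and of cortical neuron markers 0 of 5 (−0.235). Their part in the result was not tested. Adar is measured by a pair of probes that disagree here: the brighter differed by −0.04 and the dimmer by 0.70, both well above background on all 20 arrays.

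Whether the Meth effect depended on Tat was tested by the interaction: the log2 change with Meth when Tat was present, minus the change when it was absent. Stat2, Irf5 and Ifitm2 passed, 3 of 34 (8.82%), beside 36.0% of all genes, and all were negative, where 23.6% of all genes passed as negative and 12.4% as positive. None was called above 2-fold, beside 7.44% of all genes. The interaction was −0.51 ± 0.12 for Stat2 (SE; limma adjusted p = 0.00278), −0.65 ± 0.16 for Irf5 (adjusted p = 0.0042) and −0.64 ± 0.18 for Ifitm2 (adjusted p = 0.0082). For Stat2 the difference with Meth was 0.50 without Tat and 0.00 with it. For Irf5 it was 0.19 without Tat and −0.46 with it, neither of which passed alone. Without Tat−/Sal replicate 1, which was singled out after its values were seen, Ifi27, Ifih1 and Ifitm3 also passed. Without scaling 3 genes passed on the positive side, Adar, Oas2 and Trim25, beside 39.4% of all genes, of which 0.773% were negative. Stat2, Irf5 and Ifitm2 did not pass then, with interactions of −0.02, −0.16 and −0.16, so these results depend on the scaling.

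In the 3 comparisons that do not use Tat−/Meth no interferon response gene passed. Against Tat+/Sal, Tat+/Meth had 0 of 34 (background 0%). An unadjusted p under 0.05 was reached by 2 of 34, Irf5 and Ifitm1, beside 1838 of all 15102 genes. The median was −0.11, and within slide 3 it was −0.03. Tat+/Sal against Tat−/Sal, the effect of Tat alone, had 0 of 34 beside 1.42% of all genes (0.768% higher, 0.649% lower, 0.0199% above 2-fold). Here 2 of 34, Oas2 and Irf9, had an unadjusted p under 0.05, beside 3094 of all 15102 genes. All Tat+/Sal arrays lay on slide 3 and all Tat−/Sal arrays on slide 2, so Tat and slide cannot be told apart by these arrays alone. Tat+/Meth against Tat−/Sal had 0 of 34 (background 0%), with Oas2 and Xaf1 at an unadjusted p under 0.05, beside 1177 of all 15102 genes.

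The saline mouse shaped these comparisons too. The median of the set in Tat+/Sal vs. Tat−/Sal was −0.29 with it and −0.01 without it, while the median of all genes was −0.01 in both. Isg15 was −0.67 with it and −0.05 without it, and Ifit1 −0.81 and −0.08. In Tat+/Meth vs. Tat−/Sal the median was −0.28 and −0.03. Within slide 2, which holds 3 Tat+/Meth and all 5 Tat−/Sal arrays, the median was −0.36 and the smallest limma adjusted p of the set 0.536. These values do not show that Tat left the genes unchanged.

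Another 3 genes of the set with a probe stayed under the signal limit of 6 in every group mean and were not tested. Irf7, the master factor of type I interferon induction, was well above background on 3, 4, 3 and 3 of 5 arrays in Tat−/Meth, Tat−/Sal, Tat+/Meth and Tat+/Sal. Its mean levels were 5.59, 5.90, 5.26 and 5.69, with 7.93 in Tat−/Sal replicate 1, 6.89 in Tat−/Meth replicate 5 and 6.61 in Tat+/Sal replicate 5. Tap1, the partner of Tap2, was well above background on 2, 3, 1 and 0 arrays in the same order, with means of 5.02, 4.83, 4.41 and 4.46. Oas3 was not well above background on any array.

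The rest of the pathway was examined through 103 further genes, 83 of them tested. In Tat−/Meth vs. Tat−/Sal 36 passed (43.4%, beside 50.2% of all genes), 16 higher and 20 lower, with a median of −0.02. Relative to the array as a whole, upstream genes moved in opposite directions. All 4 interferon genes tested, Ifna1, Ifna2, Ifna5 and Ifnl3, were lower, where 15.3% of all genes passed as lower, and 6 of 8 receptor and kinase genes were higher, where 35% of all genes did (Ifnar1, Ifnar2, Ifngr1, Ifngr2, Il10rb and Jak1). Of 34 other stimulated genes 2 were higher and 7 lower. Without scaling the median of all genes in this comparison was −0.29 in place of 0.14, so small rises depend on the scaling. Slide 1 and Tat−/Meth cannot be told apart here either.

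Ifna5 measured 5.50 to 7.18 in Tat−/Meth and 7.67 to 7.96 in Tat−/Sal, a difference of −1.76 ± 0.21 (SE; limma adjusted p = 2e-06), and Ifna2, whose signal was well above background in only 2 of the 5 Tat−/Meth mice, differed by −1.68. The Ifna genes are close copies of one another, and whether their probes separate them was not tested. Ifngr2, a subunit of the interferon gamma receptor, measured 11.38 to 11.82 against 10.45 to 10.91, a difference of 0.95 ± 0.09 (SE; limma adjusted p = 9.48e-08). Isg20, an exonuclease, was higher by 0.88. None of these groups overlapped except those of Ifna2.

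In Tat+/Meth vs. Tat−/Meth 35 of the 83 passed (42.2%, beside 54.4% of all genes), 19 higher and 16 lower, with the largest passed changes in Ifna2 (1.73) and Ifna5 (1.67) on the higher side and in Aim2 (−1.33), a sensor of cytosolic DNA, and Ifngr2 (−0.87) on the lower side. The Aim2 probe exceeded background clearly in 4 Tat−/Meth mice (group range 5.35 to 8.96) but in only 2 Tat+/Meth mice (4.64 to 6.12), so the lower level is not well measured. In the interaction 28 passed (33.7%, beside 36.0% of all genes), 17 positive and 11 negative. In each of the other comparisons 0 of 83 passed. In Tat+/Sal vs. Tat−/Sal this count was 11 of 83 with the slide as a random block, where 15.4% of all genes passed. It was 2 with quantile normalization, where 3.23% of all genes passed, 3 with the replicate block and 1 with a trend in the prior variance.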

How the data were processed

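Whole-genome 1-colour arrays of 20 mouse brain samples were analysed, 4 groups of 5. The authors deposited scanner files with spot intensity values, of which the background-subtracted processed signal was used, and a series matrix of intensity values, used as an alternative. Control spots (3671 per array) and spots flagged as outliers (4278 in all) were removed. Replicate spots were reduced to their mean log2 value, and arrays were aligned at the 75th percentile of log2 signal. Through RefSeq accessions 27656 of 55681 probes were matched to 20972 genes, 20970 of them with values on at least 3 arrays per group, and the brightest probe stood for its gene. A gene was tested with a mean of at least 6 in 1 group.

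Groups were compared with limma, 1 mean per group over all arrays, moderated variances and Benjamini–Hochberg adjustment over 15102 genes; the fit was tested on simulated data. The members and lists were chosen with earlier results of these data known. Arrays are printed for members called in any comparison and for the 3 largest passed changes per comparison and direction; those high in Tat−/Sal replicate 1 were named after their values were seen. Alternatives covered scaling, background correction, the series matrix, signal filters, probe rule, slide, replicate number, thresholds, the methods' t-test and each array left out. Number of arrays limits the precision. R 4.3.3, limma 3.58.1, Python 3.11.15, numpy 2.4.6, pandas 2.3.3 and matplotlib 3.10.9 were used. The labels give the dye as Cy3.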

Additional observations from a re-analysis of the deposited data

Results flagged for a closer look

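With 136 sets of 5 arrays examined (34 genes in 4 groups), 13 held an array separated from the rest by Dixon's criterion. For a single set of normally spread values it flags about 1 in 20 by chance. The genes share the same arrays, so the sets are not independent and the count is a description. The rate over all genes was not counted. Of the 13, 7 were high values in Tat−/Sal replicate 1. They were Ifi27 at 14.42 (others 12.96 to 13.25), Irf9 at 11.75 (10.51 to 10.83), Oasl1 at 8.52 (5.36 to 6.26), Oasl2 at 11.93 (7.78 to 8.88), Bst2 at 11.51 (9.06 to 9.67), Gbp3 at 11.13 (9.05 to 9.65) and B2m at 14.26 (13.3 to 13.41). Isg15, Ifit1 and Usp18 were not separated by this criterion, since Tat−/Sal replicate 2 was also above the rest of its group.

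In Tat−/Meth replicate 5, Ifi44 stood out at 7.99 (4.47 to 5.05), Oasl1 at 7.62 (5.22 to 5.64) and Dhx58 at 6.47 (5.66 to 5.83). Ifi44 was also separated in Tat+/Meth replicate 5 at 6.88 (5.01 to 5.22), and Eif2ak2, the RNA-activated kinase PKR, in Tat+/Sal replicate 5 at 7.23 (6.62 to 6.77). The only low value was Irf3 in Tat−/Sal replicate 5, at 12.47 (12.6 to 12.64).

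The Meth difference was not the same with and without Tat for Irf5 (interaction −0.65), Stat2 (−0.51) and Ifitm2 (−0.64) by the limma interaction test. None of these genes passed it without scaling. Slide 1 and Tat−/Meth cannot be told apart in these values.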

How the results depend on the processing

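In Tat−/Meth vs. Tat−/Sal 3 genes of the set passed, beside 50.2% of all genes. Without scaling 12 passed, beside 48% of all genes, and with normexp background correction 6, beside 51.7%. With normexp 37 genes of the set were tested, and the 6 include Oas3 and Tap1, which were under the signal limit in the main fit. The count was 6 with the mean over a gene's probes, 0 at an adjusted p under 0.01 with a 3-fold limit and 1 at the 2-fold limit. In Tat+/Meth vs. Tat−/Meth, where 7 passed, the counts were 1 without scaling, 12 with only the groups compared, and 0 at either fold limit. In Tat+/Sal vs. Tat−/Sal the slide as a random block (correlation −0.062) gave 1 gene, Oas2, in place of 0, while 15.4% of all genes passed in place of 1.42%. In the interaction it gave 7 in place of 3, and either fold limit gave 0. Tat+/Meth against Tat+/Sal and against Tat−/Sal gave 0 under all 17 alternatives. Leaving out each array in turn gave 3 to 7, 4 to 13 (lowest without Tat+/Meth replicate 3) and 3 to 6 genes in the first, second and interaction comparisons, each highest without Tat−/Sal replicate 1. Without scaling the difference of Irf8 in Tat+/Meth vs. Tat−/Meth was 0.05 in place of −0.28. The median of the set without scaling was −0.45, 0.07 and 0.41 in the comparisons with Tat−/Meth, in place of −0.03, −0.27 and −0.05, and that of all genes −0.29, 0.19 and 0.35. The causes were not tested.

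Same-numbered arrays were not treated as pairs in the main fit. Their deviations correlated at −0.176 to 0.358, with 7 of 25 pairs over 0.1, and at 0.033 to 0.358 between Tat+/Meth and Tat+/Sal. Arrays of different number were not correlated, so pairing was not tested. With the replicate block 4, 8 and 4 genes passed in the comparisons with Tat−/Meth, and 0 in the others. Dim genes are limited by signal over background: Ifi44 was well above background on 2 or 3 arrays per group. Among the 83 other pathway genes, median scaling gave 23 in place of 36 for Tat−/Meth vs. Tat−/Sal, and 15 in place of 28 for the interaction. The share of all genes fell as well, to 28.1% in place of 50.2% and to 17% in place of 36.0%. At the 2-fold and 3-fold limits 6 and 3 passed in the first, 8 and 3 in Tat+/Meth vs. Tat−/Meth and 8 and 4 in the interaction. Of all genes 6.85%, 7.22% and 7.44% passed at the 2-fold limit.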
